A study of Mus musculus with 11 samples.

Results

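Cohesin is a ring of SMC proteins closed by a kleisin and bound by a STAG protein, and the germline makes its own version of most parts of that ring. The 8 genes described here are the meiotic subunits Rec8, Rad21l, Stag3 and Smc1b and the general subunits Smc3, Rad21, Stag1 and Smc1a. They were chosen by name, and each matched 1 of the 20389 rows of the deposited table of unique molecular identifiers (UMIs, random tags that mark single RNA molecules). All 8 passed the filter on low counts and were among the 10990 genes tested. Cohesin holds sister chromatids together from replication until anaphase and shapes chromatin loops. In meiocytes, complexes with meiotic subunits form the chromosome axis along which homologues pair, and REC8 is the kleisin whose cleavage releases the arms and later the centromeres. SMC3 has no meiotic counterpart and serves both kinds of ring.

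The cells came from testes of 3 adult mice that carry a Dazl-GFP reporter, Dazl being a germ cell gene, and all sorted cells were live and positive for GFP. No mouse was treated and no other genotype was included, so every comparison is between stages of germ cells within the same animals (n = 3 mice). SORT-Seq, which sorts 1 cell into each well and counts the 3′ ends of polyadenylated RNA, gave 8 libraries of mouse 1 by CEL-Seq1, 1 library of mouse 2 by CEL-Seq2 and 2 libraries of mouse 3 by CEL-Seq2. The protocol and the mouse therefore cannot be told apart.

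Of 1920 wells, 1448 held at least 1000 UMIs, and 1210 of these (466 of mouse 1, 288 of mouse 2 and 456 of mouse 3) were placed in 12 stages from spermatogonia to late pachytene. The stages were built from variable genes on odd-numbered autosomes. The cohesin genes and the lists of related genes given below were left out, so no value of these genes placed a cell. The shares of all genes given beside them were not limited in this way. Stage 1 was undifferentiated spermatogonia-like, stages 2 and 3 differentiating spermatogonia-like and stage 4 preleptotene-like. Stages 7 and 8 were called leptotene/zygotene-like and stages 9, 11 and 12 pachytene-like. At stages 3, 4 and 9 none of the 10 leading genes was a marker of the name given. The markers gave no name to stage 5 (led by Stra8), stage 6 (led by Rbpms2 and Dmc1) or stage 10. Stages 5 and 6 nevertheless scored best as preleptotene, as stage 4 did, and stage 10 as pachytene. Each stage held 73 to 132 cells, and the median depth per cell ran from 7053 UMIs at stage 7 to 88181 at stage 12. Summed UMIs of each mouse and stage were compared with edgeR's quasi-likelihood test with mouse as a block, and adjusted p-values are Benjamini-Hochberg values over all genes tested in that comparison. Levels are CPM, UMIs scaled to 1000000 per sum with edgeR's TMM factors, and because a 3′ end is counted once per molecule they were not divided by gene length.

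Across the 12 stages the 8 subunits followed several different courses, and the meiotic subunits did not move as 1 group. Rec8 and Rad21l came up briefly and at low levels, Rec8 at stage 4 and Rad21l at stages 5 and 6. Stag3 and Smc1b were already abundant in spermatogonia, were highest at stage 6 as shares of UMIs and stayed above their starting share to stage 12. With UMIs of ERCC spike-ins, RNA molecules added to each well, as library sizes (the ERCC scale), both were below stage 1 at stage 8 (-0.52 for Stag3 and -0.71 for Smc1b, log2). Of the general subunits, as shares of UMIs, Rad21 fell mainly at stage 5 and Smc3 from stage 7 on. Smc1a was all but gone by stage 9, while the share of Stag1 moved little. Per spike-in Rad21 and Smc3 were already below stage 1 at stage 3 in every mouse. All 8 changed over the stages by edgeR's quasi-likelihood F test, with adjusted p-values between 6.07e-26 for Rad21 and 2.81e-08 for Stag1, but so did 95.6% of all genes tested.

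Between the earliest and the latest stage, 2 of the 8 subunits were higher, beside 36.4% of all genes tested, and 6 were lower, beside 40.1%, of which Stag1 was higher (0.94) on the ERCC scale. The 2 that rose were Stag3 and Smc1b. The 4 meiotic subunits together took 28.2% ± 2.0 (SD, n = 3) of the UMIs of the 8 genes at stage 1. Their share was 69.2% ± 1.3 at stage 6, dipped to 59.1% ± 4.2 by stage 8 and reached 86.5% ± 1.4 in the last stage. At stage 12 the 3 mice had 84.9%, 86.9% and 87.6%, all above the 26.8% to 30.5% of stage 1. At stage 5, 6 subunits were above and 2 below stage 1 as shares of UMIs, beside 22.3% and 28.2% of all genes. Smc3 and Stag1 were lower at stage 5 on the ERCC scale (-0.70 and -0.68), and Rec8 and Rad21l (0.71 and 1.67) were not called. At stage 6, 5 subunits were above stage 1 and 1 below it, beside 22.6% and 31.8% of all genes. From stage 7 on the count of subunits above stage 1 was 2, Stag3 and Smc1b, while that of subunits below it grew. It was 2 lower at stage 7 (beside 23.9% of all genes higher and 32.8% lower) and 3 at stages 8 (24.2% and 34.4%) and 9 (29.9% and 38.2%). It was 5 at stages 10 (33.8% and 38.9%) and 11 (35.7% and 39.6%).

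**Figure D1:**
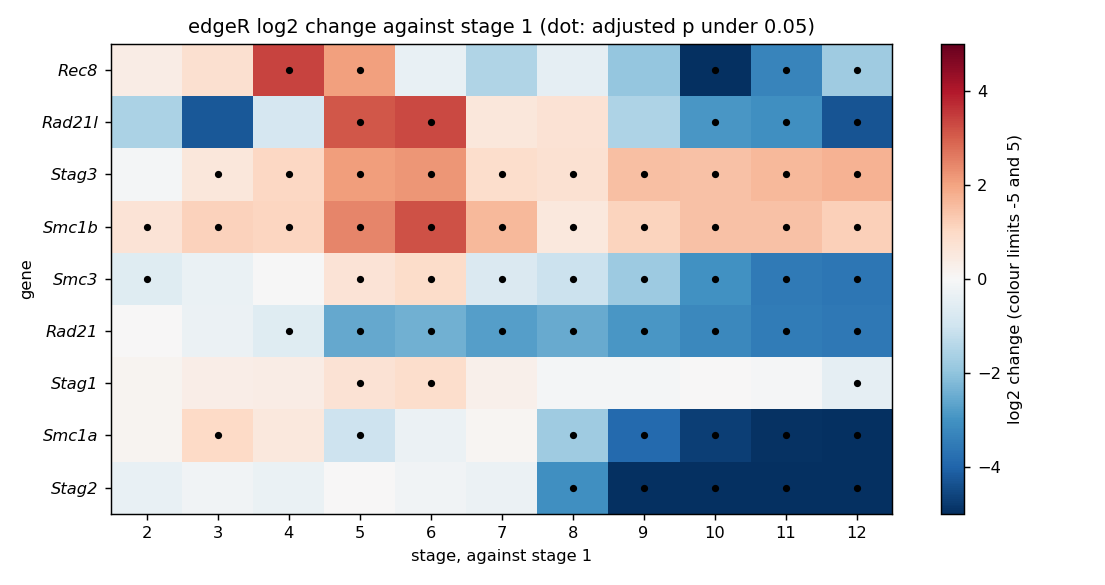
Heat map of the edgeR log2 change of each cohesin gene (rows, with the general subunit Stag2 added) at stages 2 to 12 against stage 1 (columns), coloured from blue (lower) to red (higher) with limits at -5 and 5. Dots mark adjusted p under 0.05. Stag3 and Smc1b stay red to stage 12 as shares of UMIs (on the ERCC scale both were lower at stage 8), whereas Rec8 and Rad21l are red at 2 stages each with a dot.

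Rec8 (chr14:55618037-55625395, plus strand, GRCm38) encodes the meiotic kleisin that is protected at centromeres through the first division. It was highest at stage 4, whose leading genes by fold were Rec8 itself, Esx1 and Pou4f1. That stage was called preleptotene-like with no preleptotene marker among its 10 leading genes. Stage 5, led by Stra8, also scored best as preleptotene. With a coarser clustering (Leiden resolution of 0.7) no stage was called preleptotene-like, and the cells just before the stage led by Stra8 formed 1 stage of 224 cells, led by Esx1 and Ccnd1 and called differentiating spermatogonia-like. At stage 1 the mice had 3.76, 2.64 and 6.91 CPM, from 3, 1 and 8 UMIs. At stage 4 they had 49.3, 93.2 and 38.5, from 20, 42 and 27 UMIs. Every mouse at stage 4 was above every mouse at every other stage. The log2 change from stage 1 to stage 4 was 3.37 ± 0.52 (SE, edgeR quasi-likelihood, adjusted p = 2.20e-06, n = 3 mice). Rec8 was 1 of 3 subunits higher at this stage, beside 17.3% of all genes, the others being Stag3 and Smc1b (-0.04 and -0.02 on the ERCC scale, no call), and Rad21 was the 1 lower, beside 22.5%. In the step from stage 3 to stage 4, which called 1.2% of all genes higher and 1.08% lower, Rec8 was the single subunit called (2.55 ± 0.49, edgeR quasi-likelihood, adjusted p = 0.00280, n = 3). That step lost its call without mouse 2 (2.43), without mouse 3 (2.59), without the replicate block (2.61) and in the reads table (2.90). Without cells that held 5 or more UMIs of Sertoli cell markers the change was 3.35. With staging on even-numbered autosomes, 45 wells led by Clu, Sparc and Cst9 were called Sertoli-like and got no stage. Rec8 was among the 10 leading genes of those wells.

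From stage 4 to stage 5 Rec8 fell by 1.33 on the log2 scale (± 0.48, edgeR quasi-likelihood, adjusted p = 0.0362, n = 3), and at stage 5 the mice were close together at 21.5, 21.8 and 22.5 CPM. From stage 6 on the gene was near the limit of counting. It had 0 UMIs in all 3 mice at stage 10. With a floor of 3 UMIs over the stage that is 8.23-fold lower than stage 1. The counting error of the 12 UMIs of stage 1 is not part of that value. At stage 12 it was back to 2, 5 and 3 UMIs, and the log2 change from stage 1 of -1.77 ± 0.70 (adjusted p = 0.0213, edgeR quasi-likelihood, n = 3) was lost without mouse 1 (-1.28) and without mouse 3 (-0.89), without the mouse as a replicate block (-1.22) and on the ERCC scale (-0.43). Rec8 had 203 UMIs in all wells, against 20720 for Stag3.

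Rad21l (chr2:151645404-151668533, minus strand), the other meiotic kleisin, is known from early prophase. It appeared 1 stage after Rec8. The 60 UMIs in all wells make it the scarcest of the 8 genes. At stage 5 the mice had 38.7, 34.8 and 4.08 CPM, from 9, 8 and 2 UMIs. At stage 6 they had 27.5, 41.0 and 10.9, from 6, 7 and 4 UMIs. Mouse 3 was the lowest at both stages, and it had no Rad21l UMI at any other stage. In the authors' estimated transcript counts the Rad21l UMIs of mouse 1 at stages 5 and 6 are not counted, and the gene was not tested there. The log2 change from stage 1 was 3.12 ± 0.74 at stage 5 (adjusted p = 0.000652) and 3.31 ± 0.75 at stage 6 (adjusted p = 0.000370, both edgeR quasi-likelihood, n = 3), and from stage 4 to stage 5 it was 3.98 ± 0.88 (adjusted p = 0.000786). Without mouse 1 the change at stage 5 was 2.59 (edgeR quasi-likelihood, adjusted p = 0.0531), and without the replicate block both changes lost their call (3.11 and 3.15), as they did on the ERCC scale (1.67 and 1.44).

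From stage 6 to stage 7 Rad21l fell by 2.74 on the log2 scale (± 0.77, edgeR quasi-likelihood, adjusted p = 0.0101, n = 3). At stage 12 there were 0 UMIs in all 3 mice. With a floor of 3 UMIs over the stage that is 5.75-fold lower than stage 1. The counting error of the 5 UMIs of stage 1 is not part of that value. The fitted difference to stage 1 lost its call without mouse 1 (-3.69, edgeR quasi-likelihood, adjusted p = 0.0539).

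**Figure D2:**
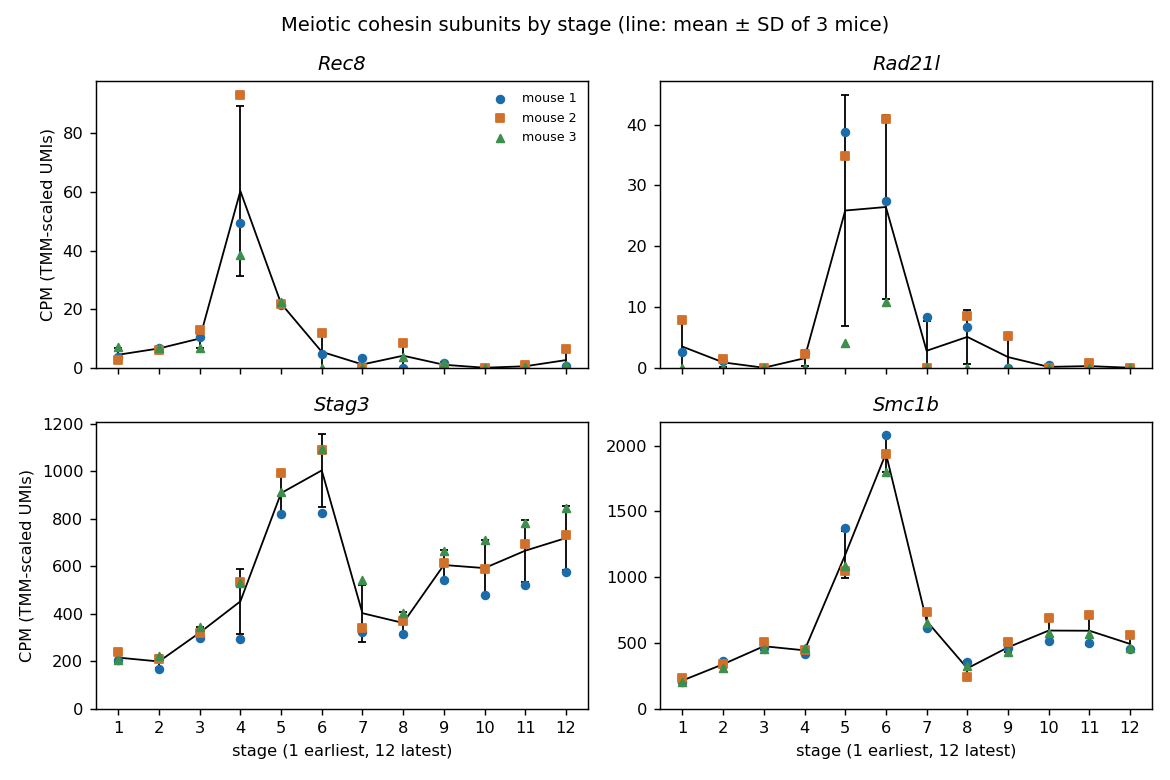
TMM-scaled CPM (linear axes, each panel with its own range) of Rec8, Rad21l, Stag3 and Smc1b at stages 1 to 12; points are the 3 mice, lines and bars the mean ± SD. Rec8 peaks at stage 4 in all 3 mice, Rad21l at stages 5 and 6, and Stag3 and Smc1b at stage 6 with a low at stage 8.

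Rad21 (chr15:51962240-51991747, minus strand), the kleisin of mitotic cohesin, was the most abundant kleisin in spermatogonia. As a share of UMIs it fell mainly in 1 step. At stage 4 the mice had 271, 257 and 309 CPM. At stage 5 they had 68.9, 74.0 and 77.6. The ranges were far apart, and no mouse at stages 5 to 12 came above 117. The log2 change from stage 4 to stage 5 was -1.93 ± 0.20 (edgeR quasi-likelihood, adjusted p = 3.16e-09, n = 3), in a comparison in which 4 subunits were higher and 3 lower, beside 13.3% and 14.3% of all genes. A smaller difference was present before it, since the level at stage 4 was below stage 1 by -0.62 ± 0.15 (adjusted p = 0.00107, edgeR quasi-likelihood, n = 3). Per ERCC spike-in more of the fall came early. Against stage 1, Rad21 was then at -1.19 ± 0.43 at stage 3 and -1.70 ± 0.32 at stage 4 (log2, SD, n = 3). At stage 5 it was at -3.94 ± 0.38. At stage 12 Rad21 was at 35.7 ± 2.08 CPM (SD, n = 3) against 427 ± 7.07 at stage 1.

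The Sertoli cell markers (8 listed, 8 in the table) were highest in the sums of stages 1 and 5, at 96.7 to 108 and 74.0 to 208 CPM, with none of the 8 at 0, against 1.27 to 8.01 at stage 12, where 1 was at 0. Sorting for live GFP-positive cells would be expected to leave such cells out. Without the 7 cells of stage 5 and 4 of stage 4 that held 5 or more of these UMIs, the step of Rad21 from stage 4 to stage 5 was -2.05.

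The meiotic kleisins came closest to Rad21 at stage 5, where they still had fewer UMIs. The log2 ratio of Rec8 and Rad21l UMIs together to Rad21 UMIs (0.5 added to each sum) went from -5.67 ± 0.44 (SD, n = 3) at stage 1 through -2.26 ± 0.79 at stage 4 to -0.69 ± 0.72 one stage later. At stage 5 the mice were at -0.19, -0.37 and -1.51, so Rad21 had more UMIs than both together in every mouse. By stage 9 the ratio was back to -4.30 ± 0.31, and later values rest on few meiotic kleisin UMIs.

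Stag3 (chr5:138280240-138312393, plus strand), the STAG protein of meiotic rings, was the subunit with the most UMIs of the 8. At stage 1 the mice had 205, 237 and 205 CPM, so the gene was far from silent in the earliest cells. At stage 6 they had 825, 1090 and 1093. The level then dropped to 314, 367 and 403 at stage 8 and rose again to 576, 733 and 846 at stage 12. The groups of stage 1, stage 8 and stage 12 did not overlap.

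Against stage 1, Stag3 was higher by 2.21 ± 0.14 on the log2 scale at stage 6 (adjusted p = 7.60e-16, but 0.46 with no call on the ERCC scale) and by 0.75 ± 0.15 at the low of stage 8 (adjusted p = 3.60e-05, but -0.52, called lower, on the ERCC scale). At the end of the series the difference was 1.73 ± 0.14 (adjusted p = 2.04e-14, all edgeR quasi-likelihood, n = 3). The first rise that passed the test was at stage 3 (0.58 ± 0.14, adjusted p = 0.00112, edgeR quasi-likelihood, n = 3), when 3 subunits were higher and 0 lower, beside 18.6% and 20.8% of all genes. Stag3, Smc1b and Smc1a were the 3, and they were also the 3 higher in the step from stage 2 to stage 3, which called 6.8% of all genes higher and 9.1% lower. None of the 3 was called on the ERCC scale in that step (-0.17, -0.37 and -0.02) or at stage 3 against stage 1 (-0.31, 0.28 and 0.14). The steps between neighbouring stages were 1.02 ± 0.14 from 4 to 5, -1.32 ± 0.14 from 6 to 7 and 0.75 ± 0.14 from 8 to 9.

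Smc1b (chr15:85064689-85131964, minus strand), the meiotic partner of SMC3, had a similar course with a higher peak. At stage 1 the mice had 201, 237 and 207 CPM, about the level of Stag3. At stage 6 they had 2085, 1939 and 1798, the highest level of any of the 8 genes at any stage. At stage 8 they had 357, 244 and 322, and at stage 12 they had 454, 564 and 461. All mice at stage 12 lay above all mice at stage 1, by less than for Stag3.

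Smc1b was above stage 1 by 0.67 ± 0.14 on the log2 scale already at stage 2 (adjusted p = 0.000383). The difference was 3.18 ± 0.15 at its peak (adjusted p = 7.69e-20) and 1.20 ± 0.14 in the latest cells (adjusted p = 7.95e-10, all edgeR quasi-likelihood, n = 3). At stage 2 it was the single subunit that was higher, beside 14.4% of all genes, and Smc3 the single one that was lower, beside 14.7%. Smc1b went on rising from stage 5 to stage 6 (0.73 ± 0.14, adjusted p = 0.000395, edgeR quasi-likelihood, n = 3), the single subunit of the 8 called in that step, beside 4.85% of all genes called higher, and on the ERCC scale it was not called (0.39). No subunit was lower in that step, beside 6.07% of all genes. Smc1b then fell by 1.55 (± 0.14) from stage 6 to stage 7 and by 1.09 (± 0.15) from stage 7 to stage 8. In the last of these steps it was 1 of 2 subunits called lower, with Smc1a, beside 3.31% of all genes, and 0 were higher, beside 4.25%. Smc1a lost that call without mouse 2 or without mouse 3 (-1.65 and -1.53) and in the reads table (-1.93).

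The 4 meiotic genes differ in the DNA upstream of their start sites. It is shown with the levels already seen, and no link between these sequences and the levels was tested. Each run covers 90 bases before to 10 bases after the RefSeq start (GRCm38.p6), 5′ to 3′ on the gene's strand, with capitals marking TTCCCGC, the reverse complement of the E2F core GCGGGAA. The windows are chr5:138280419-138280518 (plus) for Stag3, chr15:85131948-85132047 (minus) for Smc1b, chr14:55618076-55618175 (plus) for Rec8 and chr2:151668524-151668623 (minus) for Rad21l. The windows of Stag3 and Rec8 lie inside their GENCODE genes, which start further upstream.
Stag3: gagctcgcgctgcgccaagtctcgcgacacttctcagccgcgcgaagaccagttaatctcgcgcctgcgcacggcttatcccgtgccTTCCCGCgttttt
Smc1b: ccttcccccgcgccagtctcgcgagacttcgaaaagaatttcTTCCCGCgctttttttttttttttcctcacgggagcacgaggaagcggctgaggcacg
Rec8: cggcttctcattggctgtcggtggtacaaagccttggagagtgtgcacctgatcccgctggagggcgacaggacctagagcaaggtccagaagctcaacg
Rad21l: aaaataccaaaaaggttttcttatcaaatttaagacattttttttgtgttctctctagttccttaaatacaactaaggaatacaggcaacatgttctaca

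Among the windows of 300 bases that RefSeq gives for 7 of the 8 genes (Rad21 had none), GCGGGAA on either strand was in 4, those of Stag3, Smc1b, Stag1 and Smc1a, and in 4.6% of 32851 windows of all genes. The matches began 3 bases before the start of Stag3, 48 before that of Smc1b and 16 before that of Stag1, and 39 bases into Smc1a. The RefSeq start used for Stag1, within chr9:100643358-100643457, also lies inside its GENCODE gene, which starts at 100597798. CACGTG, in 7.15% of all windows, was in that of Stag3, and CNCCTCAG, the motif given for STRA8 with MEIOSIN and present in 7.94%, was in none of the 7. The window of Rad21l held 2 CpG dinucleotides, below the quartiles of all windows (3 to 20, median 7), and those of the other 6 genes held 18 (Rec8) to 43 (Stag1). A match is a run of letters and was not tested for binding.

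Stag1 (chr9:100597798-100959375, plus strand), a general STAG protein, had the steadiest share of the 8. At stage 1 the mice had 123, 150 and 170 CPM, and at stage 6 they had 211, 281 and 312, with no overlap. Its log2 change at stage 6 was 0.87 ± 0.16 (edgeR quasi-likelihood, adjusted p = 2.41e-05, n = 3), with -0.82 on the ERCC scale, and at stages 7 to 11 it was between -0.11 and 0.25 with no call. On the ERCC scale Stag1 was called lower at stages 7 and 8 (-1.31 and -1.33) and higher at stages 10 and 11 (0.91 and 1.11). At stage 12 the mice had 114, 111 and 104, all below stage 1. That difference of -0.44 ± 0.15 (adjusted p = 0.00623, edgeR quasi-likelihood, n = 3) was lost without mouse 2 or without mouse 3 (-0.22 each), reads in place of UMIs gave -0.05, and the ERCC scale 0.94.

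Stag2 (chrX:42149317-42277185, plus strand), the other general STAG protein, was looked at beside the 8 because it is X-linked. It had 80.3, 86.9 and 73.4 CPM at stage 1 and 46.8, 83.1 and 73.3 at stage 7, and its change of -0.31 ± 0.25 did not pass the test, whereas on the ERCC scale Stag2 was called lower there (-1.87). At stage 8 the mice had 13.4, 8.54 and 7.53, and the log2 change from stage 7 was -2.75 ± 0.41 (edgeR quasi-likelihood, adjusted p = 4.07e-05, n = 3). With Stag2 counted in, Stag3 had about as many UMIs as both general STAG genes together at stage 1 (log2 ratio -0.08 ± 0.15, SD, n = 3) and outnumbered them at stage 12 (2.66 ± 0.34).

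Smc1a (chrX:152016428-152062694, plus strand), the general partner of SMC3, was the other X-linked subunit. It had 61.5, 44.8 and 48.4 CPM at stage 1 and 109, 95.6 and 107 at stage 3, above all mice of stages 1 and 2. That rise of 1.01 ± 0.26 (adjusted p = 0.00234, edgeR quasi-likelihood, n = 3) lost its call without mouse 3 (0.87, adjusted p = 0.0763), without the replicate block (1.00, adjusted p = 0.110), in the reads table (0.94, adjusted p = 0.240) and on the ERCC scale (0.14, adjusted p = 0.722). At stage 5 the mice had 12.9, 39.2 and 24.5, from 3, 9 and 12 UMIs, and at stage 7 they had 46.8, 52.5 and 73.3. The level thus went down at stage 5 and was back near its start at stage 7 (log2 change against stage 1 0.10 ± 0.31, no call, but -1.46, called lower, on the ERCC scale). The step of Smc1a from stage 4 to stage 5 was not called in the reads table (-1.47).

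The last fall of Smc1a came with stages 8 and 9. At stage 8 the mice had 23.4, 8.54 and 13.2 CPM and at stage 9 they had 2.17, 2.63 and 6.49. The log2 change against stage 1 was -1.78 ± 0.41 at stage 8 (adjusted p = 0.000343) and -3.90 ± 0.46 at stage 9 (adjusted p = 1.64e-09, both edgeR quasi-likelihood, n = 3). The step from stage 8 to stage 9 was not called on the ERCC scale (-0.85). At stage 12 there were 2, 2 and 7 UMIs in the 3 mice, and the change was -5.13 ± 0.40, beside -5.21 ± 0.31 for Stag2. Of 397 X-linked genes tested, 359 (90.4%) were lower at stage 12 than at stage 1 and 5 (1.26%) higher, so both X-linked subunits moved as most genes of that chromosome did.

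Smc3 (chr19:53600398-53645833, plus strand) is the subunit that both kinds of ring need. At stage 1 the mice had 516, 487 and 455 CPM, the highest of the 8 genes there. At stage 6 they had 1059, 908 and 814, and at stage 7 they had 325, 214 and 339. By stage 12 they had 34.0, 44.5 and 43.9, far below every mouse at stages 1 to 9. The log2 change against stage 1 was 0.92 ± 0.17 at stage 6 (adjusted p = 2.07e-05, but -0.82 on the ERCC scale) and -3.60 ± 0.19 at stage 12 (adjusted p = 3.81e-19, both edgeR quasi-likelihood, n = 3).

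As a share of UMIs, Smc3 came down in several steps. It fell by 1.65 on the log2 scale from stage 6 to stage 7 (± 0.19, adjusted p = 1.74e-08), by 0.75 from stage 8 to stage 9 (± 0.20, adjusted p = 0.00544) and by 1.24 from stage 9 to stage 10 (± 0.20, adjusted p = 1.13e-05, all edgeR quasi-likelihood, n = 3). On the ERCC scale the first of these steps was called (-1.50), and the other two were not (0.45 and -0.34). Per spike-in Smc3 was already at -1.19 ± 0.08 at stage 3 and at -0.84 ± 0.32 at stage 6 against stage 1 (log2, SD, n = 3). At stages 7 to 12 Smc3 per spike-in was between -2.46 and -1.95 in the mean, and none of its steps after stage 7 was called on the ERCC scale. At stage 12 Stag3 had 576 to 846 CPM against 34.0 to 44.5 of Smc3, a log2 ratio of 4.12 ± 0.13 (SD, n = 3), after -1.17 ± 0.15 at stage 1.

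**Figure D3:**
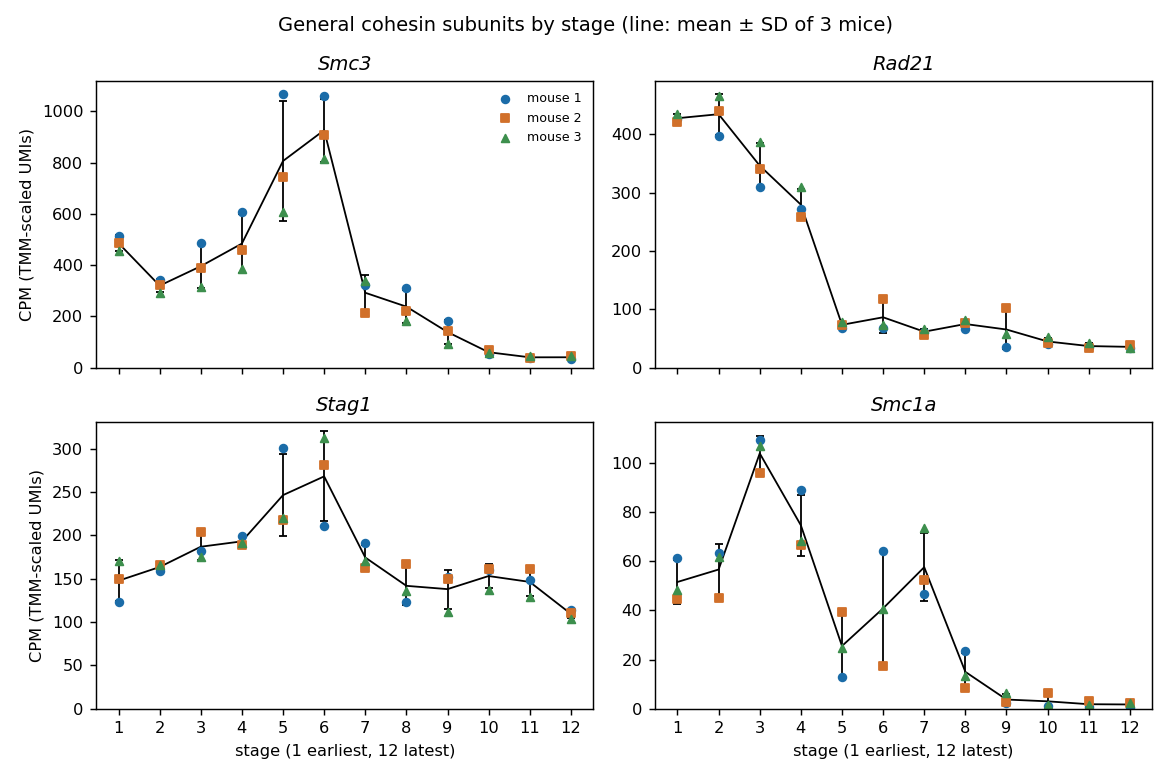
TMM-scaled CPM (linear axes, each panel with its own range) of Smc3, Rad21, Stag1 and Smc1a at stages 1 to 12; points are the 3 mice, lines and bars the mean ± SD. Rad21 drops between stages 4 and 5, Smc3 between stages 6 and 7, and Smc1a between stages 7 and 9, while Stag1 stays between 104 and 312.

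The step from stage 6 to stage 7 was shared by meiotic and general subunits. In it 5 of the 8 were lower and 0 higher, beside 10.3% and 8.83% of all genes. They were Rad21l, Stag3, Smc1b, Smc3 and Stag1. Stag1, the smallest of the 5, fell by 0.62 (± 0.17, edgeR quasi-likelihood, adjusted p = 0.00810, n = 3) and lost its call without mouse 2 or without mouse 3 (-0.56 and -0.42), without TMM factors (-0.56), without a filter on low counts (-0.59), in the reads table (-0.41) and on the ERCC scale (-0.48). As shares of UMIs the genes split from stage 8 to stage 9, with Stag3 (0.75 ± 0.14, adjusted p = 8.16e-05) and Smc1b (0.58 ± 0.15, adjusted p = 0.00329) higher, beside 14% of all genes, and Smc3 and Smc1a lower, beside 10.1% (edgeR quasi-likelihood, n = 3). Without mouse 2 Smc1b was not called there (0.41), and without mouse 1 Smc1a was not (-1.26). Neither Smc3 nor Smc1a was called lower in that step on the ERCC scale. From stage 9 to stage 10, 1 subunit, Smc3, was lower as a share of UMIs and 0 higher, beside 9.02% and 14.8% of all genes. None of the 8 was called from stage 10 to stage 11 (1.83% of all genes higher, 0.728% lower) or from stage 11 to stage 12 (5.55% and 2.87%) by the same test.

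Paralogue ratios put the exchange of subunits on 1 scale. At stages 1, 6, 7 and 12 the log2 ratio of Stag3 to Stag1 UMIs was 0.55 ± 0.25, 1.90 ± 0.08, 1.16 ± 0.45 and 2.69 ± 0.34 (SD, n = 3). The ratio of Smc1b to Smc1a was 2.05 ± 0.34 at stage 1, so Smc1b had the more UMIs from the start. At stages 4, 5, 7 and 12 it was 2.57 ± 0.30, 5.53 ± 0.93, 3.52 ± 0.35 and 8.21 ± 1.17. Both ratios were thus higher at stages 5 and 6 than at stages 1 to 3 in every mouse, were lower at stage 7 than at stage 6 in every mouse, and were highest at stages 11 or 12 in the mean.

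**Figure D4:**
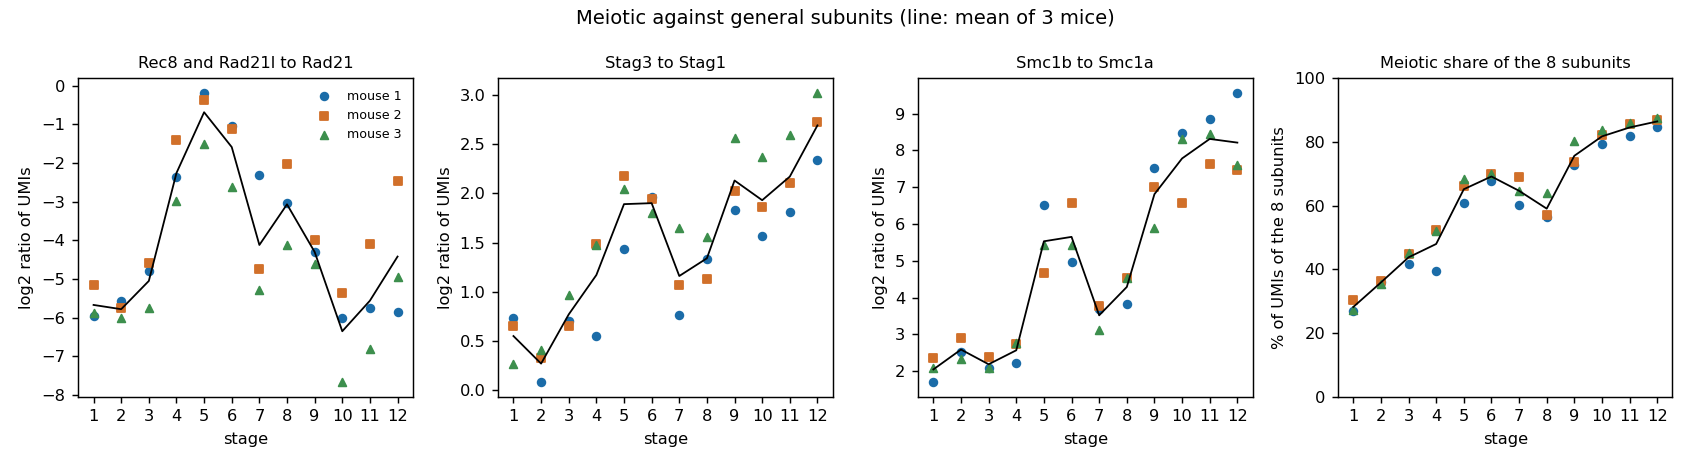
Log2 ratio of UMIs (0.5 added to each sum) of Rec8 and Rad21l to Rad21, Stag3 to Stag1 and Smc1b to Smc1a, and percent of the UMIs of the 8 genes that belong to the 4 meiotic subunits, by stage; points are the 3 mice and lines their mean. The kleisin ratio peaks at stage 5 below 0, and the meiotic percent goes from 28.2 at stage 1 to 86.5 at stage 12.

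These levels are shares of the UMIs of each sum, and the total per cell changed with stage. Relative to ERCC spike-ins the UMIs of all genes together were -1.77 ± 0.39 (log2, SD, n = 3) at stage 6 and 1.65 ± 0.38 at stage 12 against stage 1. Per spike-in, Stag3 was 0.45 ± 0.60 at stage 6 and 3.07 ± 0.47 at stage 12, and Smc1b was 1.41 ± 0.36 and 2.54 ± 0.18. On that scale both were thus highest late, at stage 11 or 12, and not at stage 6. Stag3 was below stage 1 in every mouse at stages 7 and 8 (-0.72 ± 0.29 and -0.51 ± 0.26), and Smc1b was at stage 8 (-0.76 ± 0.57). Smc3 was at -0.84 ± 0.32 at stage 6 and Stag1 at 0.93 ± 0.30 at stage 12, each with its sign turned from that of its share. Rad21 was at -4.38 ± 0.13 at stage 7 and -2.23 ± 0.14 at stage 12, so it was below stage 1 on both scales. Between these stages it rose per spike-in, whereas its share was lower at stage 12 (-3.59) than at stage 7 (-2.76).

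**Figure D5:**
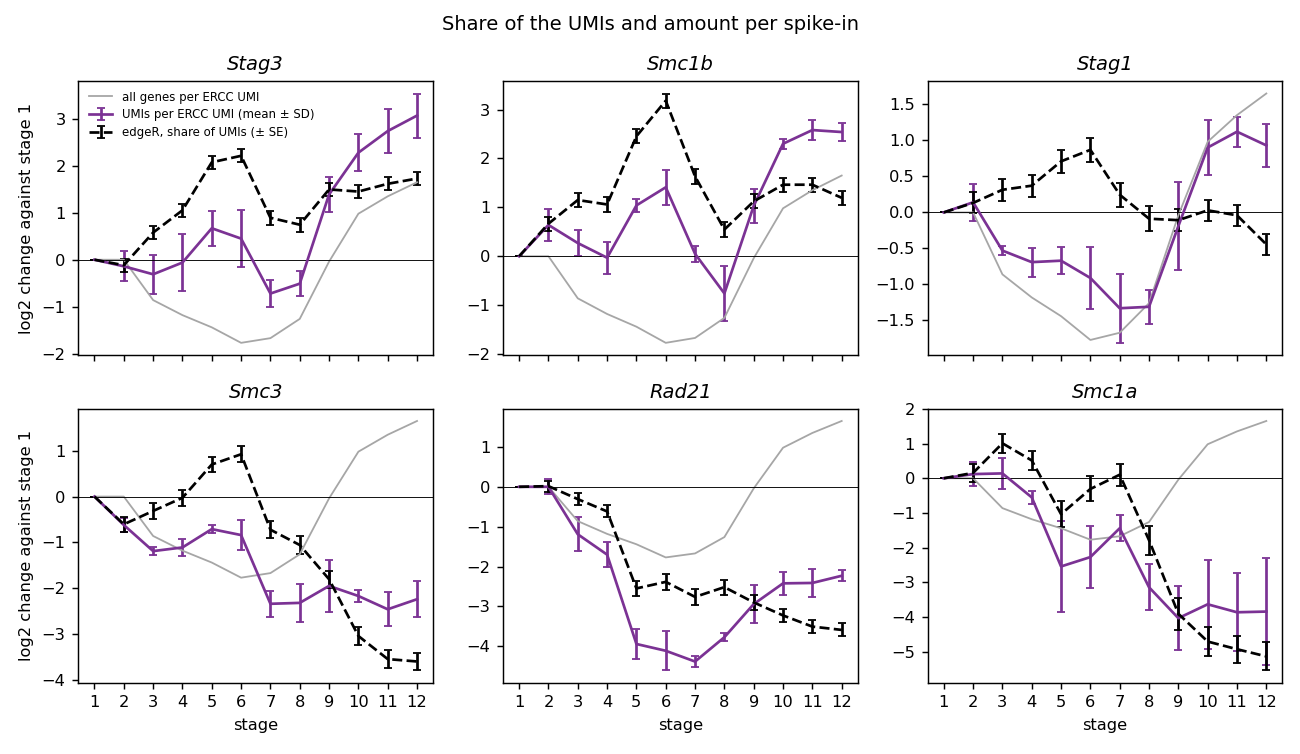
Log2 change against stage 1 of 6 cohesin genes by stage, as UMIs per ERCC spike-in UMI (purple, mean ± SD of 3 mice) and as a share of UMIs fitted by edgeR (black dashed, ± SE), with all genes per ERCC UMI in grey. Each panel has its own y range. Stag3 and Smc1b per spike-in are highest at stages 11 and 12, whereas their shares are highest at stage 6, and both are below 0 per spike-in at stage 8.

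In single cells, each thinned to 3000 UMIs, Rad21 was detected in 77.8% of 72 cells at stage 1 (exact 95% interval 66.4 to 86.7) and in 25% of 76 at stage 5 (15.8 to 36.3). Before thinning these shares were 95.9% and 51.3%. Rec8 was detected in 18.4% of 98 cells at stage 4 (11.3 to 27.5, 41.0% before thinning) and in 0 of 72 at stage 1. At 3000 UMIs a count of 0 allows up to 4.99% of cells with a Rec8 UMI, and before thinning 13.7% of stage 1 cells had one. Of the 98 cells at stage 4, 7 held UMIs of both Rad21 and Rec8 (7.14%, and 31.4% before thinning), so both kleisin transcripts occurred in the same wells. Smc1b was detected in all 80 cells at stage 6, and Stag3 in 91.2% of them. Smc3 and Stag3 were found together in 85.0% of cells at stage 6 (75.3 to 92.0) and in 5% of 100 cells at stage 12 (1.64 to 11.3). Thinned to 5000 UMIs these shares were 96.9% and 15.2%, and before thinning 94.3% and 79.2%, so at stage 12, where the median cell had 88181 UMIs, most cells held both transcripts. Intervals cover counting error only, and thinning to 3000 UMIs left out 1 to 8 cells of these stages.

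The genes most like each subunit across the 12 stages were found by Pearson's r of log2(CPM + 10) within each mouse, averaged over the 3 mice, as a description only. Tex15 was most like Smc3 (mean r 0.979) and Bzw1 most like Rad21 (0.977). Rlim, a gene of the X chromosome, was most like Smc1a (0.960), and Vamp3 most like Stag3 (0.952). Zfp672 was most like Smc1b (0.924), Kdm2a most like Rad21l (0.904), Kdm5a most like Stag1 (0.902) and Acpl2 most like Rec8 (0.888). The stages within a mouse share a library or libraries, and the depth of the sums follows the stage.

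Partners of the meiotic axis were also higher. All 5 tested genes of a list of 7 axis partners were higher at stage 6 and at stage 12 than at stage 1, beside 22.6% and 36.4% of all genes, with a median log2 change of 3.17 and 1.86 against -0.17 and -0.09 over all genes. All 5 were also higher at both stages on the ERCC scale. Sycp2, a protein of axial elements, had mean levels of 276, 2855 and 1677 CPM at stages 1, 6 and 12. Those of Sycp3, its partner, were 298, 2578 and 964. Hormad1, which marks unsynapsed axes, had 59.6, 529 and 406, and Meiob, a single-strand DNA binding protein of recombination, had 10.6, 293 and 33.6.

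The list of factors that load, acetylate, release or protect cohesin showed no common direction as shares of UMIs. Of 16 tested of 19 listed, 3 were higher, beside 36.4% of all genes, 7 lower, beside 40.1%, and 6 not called at stage 12, with a median log2 change of -0.39. On the ERCC scale 11 were higher and 2 lower there, with a median of 1.01 against 1.28 over all genes. The 3 higher were Pttg1, Nipbl and Sgol2, the last pair named after their values were seen. Nipbl, the cohesin loader, was higher by 1.36 ± 0.19 (edgeR quasi-likelihood, adjusted p = 3.78e-08). Esco2, an acetyltransferase of SMC3, was higher at stage 6 by 2.11 (0.35 with no call on the ERCC scale) and lower at stage 12 by -2.41 ± 0.19 (edgeR quasi-likelihood, adjusted p = 2.04e-14). Cdca5, which encodes sororin, was lower by -1.99 ± 0.26 and Sgol1, a shugoshin, by -1.45 ± 0.26 at stage 12, while Pttg1, the separase inhibitor securin, was higher by 1.75 ± 0.17 (all edgeR quasi-likelihood, n = 3). Sgol1 was not called there on the ERCC scale (-0.10).

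The other SMC complexes are condensin, which compacts chromosomes, and SMC5/6, which acts in repair. Of 8 condensin genes, 2 (Smc4 and Ncapg) were higher, beside 36.4% of all genes, and 5 (Ncaph, Ncapd3, Smc2, Ncapg2 and Ncapd2) lower, beside 40.1%, at stage 12, with a median log2 change of -0.86. On the ERCC scale 4 were higher and 0 lower, with a median of 0.51. As a share of UMIs Smc4 went the other way from its partner Smc2, by 2.70 ± 0.16 (adjusted p = 1.27e-17) against -1.18 ± 0.18 (adjusted p = 2.97e-07, both edgeR quasi-likelihood, n = 3), and on the ERCC scale Smc2 was not called (0.18). Of 9 genes of the SMC5/6 complex, 7 were higher and 1 (Fam178a) lower, beside the same 36.4% and 40.1%, with a median of 0.85. All 9 were higher on the ERCC scale, with a median of 2.18. Ncapg, Ncapg2, Ncapd2 and Fam178a are named after their values were seen. Eid3, a testis paralogue of the kleisin Nsmce4a, had the largest difference among the 9, at 4.85 ± 0.31 (adjusted p = 7.70e-17, edgeR quasi-likelihood, n = 3). Its mean levels at stages 1, 6 and 12 were 16.4, 12.1 and 473 CPM.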

How the data were processed

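SORT-Seq wells of 3 mice were analysed. The authors deposited, for each gene in each well, the count of UMIs, the count of reads, and an estimated count of transcripts that, to judge by its values, is the UMI count corrected for tag collisions. Columns of mouse 1 in the estimated counts were matched to wells by their values (768 of 768 were mutual best matches). Reads were aligned with BWA 0.7.10 to mm10, per the submitters' processing notes, and the counting tool and annotation are not given in the sources used here. Mouse 1's libraries are not told apart by column name. The tables name wells, not barcodes, so barcodes shared between libraries were not counted, and no doublet caller was run on these singly sorted cells.

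Wells with at least 1000 UMIs were aligned across mice with Seurat 5.3.0 and clustered with Leiden (scanpy 1.11.5) on 1500 variable genes. The cohesin genes and the lists of related genes were left out of these. Clusters were named from fixed markers and ordered by diffusion pseudotime. Clusters of low depth got no stage. The minimum was 10 cells per sum and 2 mice per stage. The cluster led by spermatid markers, with 5, 3 and 7 cells in mice 1, 2 and 3, was below it. Sums of at least 10 cells per mouse and stage (36 sums) were tested with edgeR 4.0.16, quasi-likelihood, TMM, with mouse as a block because sums of 1 number come from 1 animal. The 3 mice are the replicates. The test was tried on simulated counts. Because the stages were defined on the same cells, p-values hold only given those stages. They rest on the spread left after the effects of stage and mouse, estimated in 1 fit over the 36 sums.

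Named genes were all 8 subunits, up to 4 genes of each list with the largest change past adjusted p of 0.05, and the most similar genes by r. The members and lists were chosen with earlier results of these data known. Total UMIs were 16682671, 5866174 and 18032562 for mice 1, 2 and 3, so genes with few UMIs rest on counting error as much as on the spread between mice. No member shares exon sequence with another gene of GENCODE vM21. Upstream windows are RefSeq's. Protein sequences were not used here.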

Additional observations from a re-analysis of the deposited data

Results flagged for a closer look

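Wells outside the 12 stages also held cohesin UMIs, and these were not part of any comparison. The 15 wells led by Prm2, Prm1, Tnp2 and Tnp1, markers of elongating spermatids, held 1549 UMIs of the 8 genes per 1000000 UMIs, 62.2% of them meiotic. In them Stag3 was at 507 (exact Poisson 95% interval 438 to 585, counting error only) and Smc3 at 256 (208 to 313), above the 34.0 to 44.5 CPM of Smc3 at stage 12.

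The 3 clusters of low depth held 1453 (41 wells), 1516 (119 wells) and 1029 (63 wells) per 1000000 UMIs, with 40.9%, 75.2% and 65.2% of them meiotic. The 472 wells below 1000 UMIs held 1621, from 291 UMIs, or 0.617 per well, with 68.4% meiotic. Each value was above the level that a count of 0 allows in those wells, at most 24.8 per 1000000. Any set with more than 3 such UMIs would pass that level, so passing it cannot tell RNA of the sorted cell from stray RNA. Rad21l had 1 UMI in these 4 sets of wells and 0 in the spermatid-like wells, and Rec8 had 0 to 4 UMIs in each set.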

How the results depend on the processing

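Of 447 values recomputed under other settings for 32 tested results, 401 kept their direction and side of the threshold, 43 lost their call and 3 changed sign. The changes of Stag3, Smc1b, Smc3, Rad21 and Smc1a from stage 1 to stage 12 kept their call and direction under all 16 settings, other staging genes, a coarser clustering and DESeq2 included. With ERCC UMIs as library sizes the median of all genes moved from -0.09 to 1.28. On that scale 6790 genes were higher and 2241 lower at stage 12, Stag1 was at 0.94 there, Smc3 and Stag1 were at -0.82 and -0.82 at stage 6, and Rec8 (-0.43, stage 12), Rad21l (1.67 and 1.44, stages 5 and 6), Stag3 (0.46, stage 6), Smc1a (0.14, stage 3; -0.85, stage 9 against 8), Stag1 (-0.48, stage 7 against 6), Smc3 (0.41, stage 5 against 4) and Rec8 at stage 5 (0.71) lost their call. Stag3 and Smc1b at stage 8, outside those 32 results, were at -0.52 and -0.71 on it. Without TMM factors the median was -0.38 and with median-ratio factors -0.28.

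Without the replicate block (the pairing of sums by mouse) Rec8 at stage 12 was -1.22 and Rad21l at stages 5 and 6 3.11 and 3.15, Smc1a at stage 3 1.00 and the step of Rec8 from stage 3 to stage 4 2.61, all 5 without a call. Without a filter on low counts, and in the reads table, Rec8 at stage 12 was -1.50 and -0.56 and Stag1 -0.17 and -0.05, and with sums of at least 20 cells Stag1 was -0.37, none called. Reads gave log2 ratios at stage 12 of 3.53 for Stag3 to Stag1 and 10.14 for Smc1b to Smc1a. Leaving out 1 mouse at a time, the change at stage 12 ranged from -2.63 to -0.89 for Rec8, -4.86 to -3.69 for Rad21l and -0.58 to -0.22 for Stag1, and that of Rad21l at stage 5 from 2.59 to 3.98. Rad21l was not tested in the transcripts table at stages 5, 6 or 12. There the log2 ratio of Rec8 and Rad21l to Rad21 in mouse 1 was -1.58 at stage 5 and -3.37 at stage 6. From UMIs it was -0.19 and -1.05. Mice 2 and 3 had the same ratios in both tables at these stages. The mean at stage 5 was -1.16 in the transcripts table, against -0.69 from UMIs. The mouse 1 values in the transcripts table are those that Rec8 alone gives (5 and 1 UMIs, against 16 and 15 of Rad21). The 9 and 6 Rad21l UMIs of mouse 1 at these stages are thus not counted there. Why they are absent was not tested. Rec8 and Rad21l, with 203 and 60 UMIs, are limited by depth, and mouse 1 alone was measured by CEL-Seq1.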
